A study of Mus musculus with 4 samples.

Results

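The *Hox* genes of the mouse genome lie in 4 clusters, *Hoxa*, *Hoxb*, *Hoxc* and *Hoxd*, and 39 of the 24346 gene symbols measured in dorsal skin carried one of these names with a paralog number from 1 to 13. The members were chosen by symbol alone, 11 in cluster A, 10 in cluster B, 9 in cluster C and 9 in cluster D. RNA was sequenced from the dorsal skin of male wild-type C57BL/6 mice, 8 weeks old when the diets began, in 2 groups of 2 libraries. Mice of the Cont-IMQ group were fed for 3 weeks a diet rich in fat, cholesterol and sucrose with bile salt, which induces nonalcoholic steatohepatitis (NASH), and mice of the 7KC-IMQ group were fed the same diet with 7-ketocholesterol (7KC), an oxidized form of cholesterol. By the sample labels, all 4 libraries came from skin treated for 1 day with imiquimod (IMQ) cream, a Toll-like receptor agonist that induces psoriasis-like dermatitis, so that both groups share the steatohepatitis diet and the IMQ treatment. The design text of the series instead speaks of daily cream for the 7KC-IMQ group and of 1 day for the Cont-IMQ group, and if these differed, diet and length of IMQ treatment cannot be told apart. Skin under vehicle cream and skin from mice on an ordinary diet were not analysed here. The comparison asks whether the *Hox* levels of IMQ-treated skin differed between mice fed with and without 7KC.

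*Hox* genes encode homeodomain transcription factors that give cells their position along the body axis. Within a cluster, genes with low paralog numbers are expressed toward the head and genes with high numbers toward the tail, and genes with the same number in different clusters (paralogs) have related sequences and partly shared functions. Adult skin keeps much of this code: dermal fibroblasts from different body sites differ in the *Hox* genes they express, and *Hoxc13* is also used in the hair follicle, where it regulates hair keratin genes. Paralog groups 9 to 13 are called posterior here.

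Among the *Hox* genes tested, the largest differences between the groups were those of *Hoxc10* and *Hoxa10* in paralog group 10, whose genes pattern the lumbar and hindlimb level of the body. *Hoxc10* was at 4.13 ± 0.132 FPKM in Cont-IMQ skin and at 0.652 ± 0.486 FPKM in 7KC-IMQ skin, and *Hoxa10* was at 2.78 ± 0.783 and 0.638 ± 0.237 FPKM (mean ± SD, n = 2 libraries each). FPKM is fragments per kilobase of exon, corrected for how deeply each library was sequenced, and so a level already divided by gene length. The genes of paralog groups 1 to 8, which made up most of the *Hox* expression of this skin, had a median difference near 0. Of the 39 genes 29 were expressed highly enough to be tested, and none of these passed after adjustment over the 15896 genes tested.

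Because paralogs are alike in sequence, the homeoboxes of group 10 are shown to let the reader judge whether reads of one member could be taken for another. The 60 bases below are codons 38 to 57 of each homeobox, read 5′ to 3′ on the coding strand from the GENCODE M21 transcripts, and capitals mark the 15 positions at which the 3 genes are not all alike.
Hoxa10: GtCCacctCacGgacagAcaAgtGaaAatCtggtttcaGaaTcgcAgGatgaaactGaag
Hoxc10: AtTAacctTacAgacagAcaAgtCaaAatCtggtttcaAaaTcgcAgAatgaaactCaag
Hoxd10: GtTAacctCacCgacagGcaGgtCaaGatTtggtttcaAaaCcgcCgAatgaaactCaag

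Across the whole homeobox of 180 bases, *Hoxa10* and *Hoxc10* were 80.6% identical, *Hoxa10* and *Hoxd10* 78.9%, and *Hoxc10* and *Hoxd10* 82.8%. The longest run of bases without a difference was 14 for each pair with *Hoxa10* and 16 for *Hoxc10* and *Hoxd10*, against a read length of 75 bases. Over all 39 homeoboxes, the median identity was 80.6% for the 42 pairs of the same paralog number and 60.6% for the other 699 pairs, and no pair shared a run longer than 52 bases. At the level of whole transcripts, no stretch of 75 bases was shared between *Hox* genes except where their annotated exons overlap on the genome, namely *Hoxc5* with *Hoxc10* and *Hoxd3* with *Hoxd4*.

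The deposited values of all 4 libraries were usable and covered the same symbols. The files give no read counts. Estimated from the steps between low FPKM values, the libraries held between 14970000 and 16210000 reads. Each depth was chosen to bring the most values within 0.1 of a whole read, and 73.7% to 78.2% of the values used then did. Chance gives 20% at a depth fixed beforehand, and more at a depth chosen in this way. Read numbers below are therefore approximate. Between 7185 and 7388 symbols were listed at 0 in a library. All 9 keratinocyte markers examined were present, and the epidermal keratin *Krt10* was between 4597 and 8444 FPKM. Fibroblast, skeletal muscle, adipocyte, melanocyte, endothelial and leukocyte markers were also present, so the libraries represent whole tissue, in which fewer cells of a type and less RNA per cell cannot be told apart. Cont-IMQ replicate 2 stood apart in hair follicle genes, which touches *Hoxc13* below.

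In these libraries 29 of the 39 *Hox* genes were above 0 in every library, and 25 had a mean of at least 1 FPKM. Highest were *Hoxd8*, a gene of the thoracic part of the code, at a mean of 13.4 FPKM over the 4 libraries, followed by *Hoxa7* at 11.3, *Hoxb7* at 9.84, *Hoxc8* at 8.18 and *Hoxc6* at 8.11 FPKM. Within each library *Hoxa7* lay above *Hoxb7*, and *Hoxb7* above *Hoxc8*. The order of *Hoxd8* and *Hoxa7*, and that of *Hoxc8* and *Hoxc6*, changed between libraries. The 5 genes all belong to paralog groups 6, 7 and 8. Paralog group 8 gave 20.2%, 21.6%, 24.0% and 24.7% of the summed *Hox* FPKM (Cont-IMQ replicates first, then 7KC-IMQ replicates), and group 7 gave 18.5%, 17.2%, 19.0% and 18.3%. Both ends of the clusters were nearly silent. *Hoxa13*, *Hoxb13*, *Hoxd12* and *Hoxd13*, genes of the most caudal level, digits and urogenital tract, were listed at 0 in all 4 libraries, and *Hoxb1*, *Hoxd1*, *Hoxa11*, *Hoxc11*, *Hoxc12* and *Hoxd11* had means between 0.0099 and 0.0779 FPKM. These 10 genes were below the minimum mean of 0.1 FPKM and were not tested. *Hoxc13* was the exception at the posterior end, at a mean of 7.01 FPKM.

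**Figure D1:**
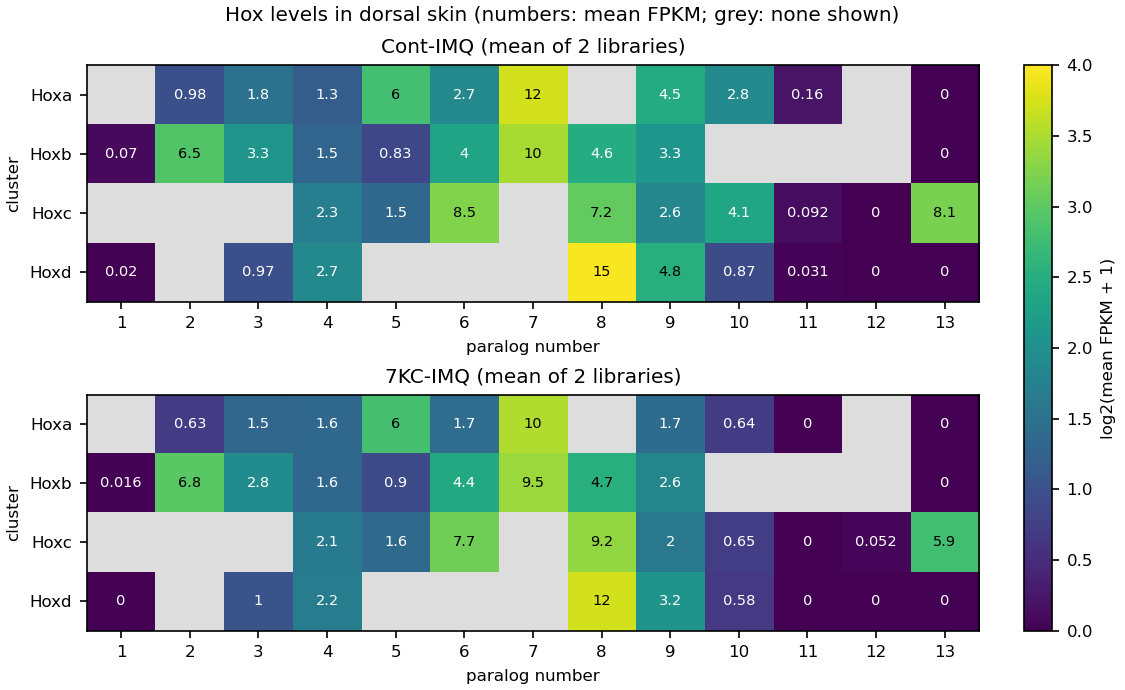
Mean FPKM of *Hox* genes by cluster (rows) and paralog number (columns) in the Cont-IMQ group (upper panel) and the 7KC-IMQ group (lower panel), 2 libraries each. The colour is log2(mean FPKM + 1), the number in each cell is the mean FPKM, and grey marks cells with no value shown; values above 9 lie at paralog numbers 7 and 8, and *Hoxa10* and *Hoxc10* are darker in the lower panel.

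The 29 tested genes were compared between the groups by limma on log2(FPKM + 1), and 0 passed an adjusted p of 0.05, where 0.00629% of the 15896 genes tested did (1 gene). The smallest adjusted p of a *Hox* gene was 0.331 by limma. At an unadjusted limma p under 0.05, 4 *Hox* genes had lower levels with 7KC, *Hoxc10*, *Hoxa10*, *Hoxd9* and *Hoxa6*, which is 13.8% of those tested against 5.47% of all genes tested. At the same limit 0 were higher, against 7.5% of all genes tested. In 10 *Hox* genes both 7KC-IMQ libraries lay below both Cont-IMQ libraries (34.5%, against 22.9% of all genes tested), in 3 both lay above (10.3%, against 23.9%), and in 16 the groups overlapped. With 2 libraries against 2, the smallest p an exact two-sided permutation test can give is 0.333, so no single gene could be called by that test. The labels do not say whether the libraries came from separate mice, and the p-values measure the spread between these libraries, which may be technical.

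The tested genes were then divided by paralog number. All 8 tested genes of paralog groups 9 to 13 had the lower mean in the 7KC-IMQ group, 4 of them without overlap, and their median difference was -0.40 on the log2(FPKM + 1) scale. Of the 21 tested genes of groups 1 to 8, 11 had the lower mean, 6 were lower without overlap and 3 higher without overlap, and their median difference was -0.0047. The median of all genes tested was -0.0056. Of all genes tested, 51.3% had the lower mean, and 22.9% were lower and 23.9% higher without overlap. Whether the group difference itself differs between posterior and other *Hox* genes was not tested. The sample labels say dorsal skin without a position along the back, and the part of sampling position in these values was not tested. The posterior median was -0.66 without 7KC-IMQ replicate 1 and -0.37 without 7KC-IMQ replicate 2. With no filter beyond a value above 0 it was -0.25, and under quantile normalization -0.34. It was -0.46 without *Hoxc13*, a setting chosen after seeing the data.

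**Figure D2:**
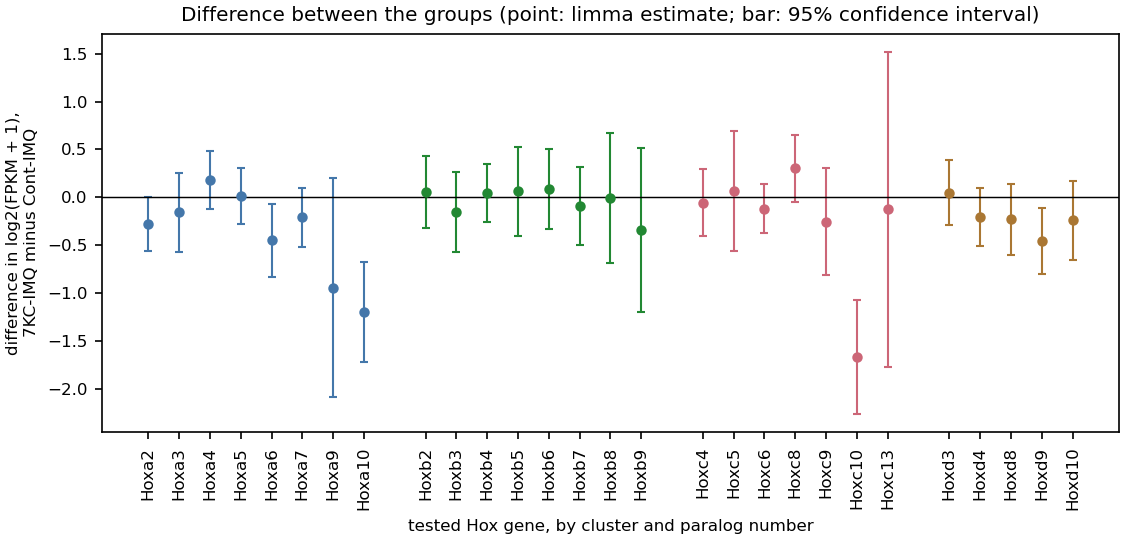
Difference between the 7KC-IMQ and Cont-IMQ groups on the log2(FPKM + 1) scale (vertical axis) for tested *Hox* genes in the order of the clusters (horizontal axis); points are limma estimates from 2 libraries per group and bars their 95% confidence intervals. Most points lie near 0, *Hoxa10* and *Hoxc10* lie at -1.20 and -1.67, and the widest interval belongs to *Hoxc13*.

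Paralog group 10 held the 2 tested *Hox* genes with the largest differences. *Hoxc10* (chr15:102966796-102971893, plus strand, GRCm38), a gene of lumbar motor neurons and hindlimb-level tissue, was at 4.22 and 4.04 FPKM in the Cont-IMQ replicates and at 0.996 and 0.309 FPKM in the 7KC-IMQ replicates. Both 7KC-IMQ libraries lay far below both Cont-IMQ libraries. The means differed 6.33-fold, and the limma difference was -1.67 ± 0.23 (SE) on the log2(FPKM + 1) scale with an unadjusted p of 0.00101 and an adjusted p of 0.331. These levels correspond to about 110, 104, 28 and 8 reads, so the value of 7KC-IMQ replicate 2 rests on few reads. Some of the *Hoxc10* sequence, 5.12% of its stretches of 75 bases, is shared with *Hoxc5*, whose levels of 2.08, 0.986, 1.73 and 1.46 FPKM overlapped between the groups.

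*Hoxa10* (chr6:52231197-52240854, minus strand), which with its paralogs keeps the lumbar vertebrae free of ribs, was at 3.33 and 2.22 FPKM in Cont-IMQ skin and at 0.806 and 0.471 FPKM in 7KC-IMQ skin. The groups did not overlap, the means differed 4.35-fold, and the limma difference was -1.20 ± 0.20 (SE, log2 scale) with an unadjusted p of 0.00242 and an adjusted p of 0.352. The estimated reads were 120, 79, 31 and 17, and no stretch of 75 bases of *Hoxa10* is shared with another gene. *Hoxd10*, which also patterns the lumbar level, was at 0.672 and 1.08 FPKM against 0.480 and 0.681 FPKM. Its groups overlapped narrowly, with a limma difference of -0.24 ± 0.16 (SE). Together the 3 genes gave 8.22 and 7.33 FPKM in Cont-IMQ skin and 2.28 and 1.46 FPKM in 7KC-IMQ skin, or 6.75%, 5.66%, 1.95% and 1.497% of the summed *Hox* FPKM. In *Hoxc10* and *Hoxa10* the unadjusted limma p was under 0.05 in the same direction in 12 of 12 alternative settings, while the adjusted p ranged from 0.219 to 0.967 and from 0.277 to 0.967.

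**Figure D3:**
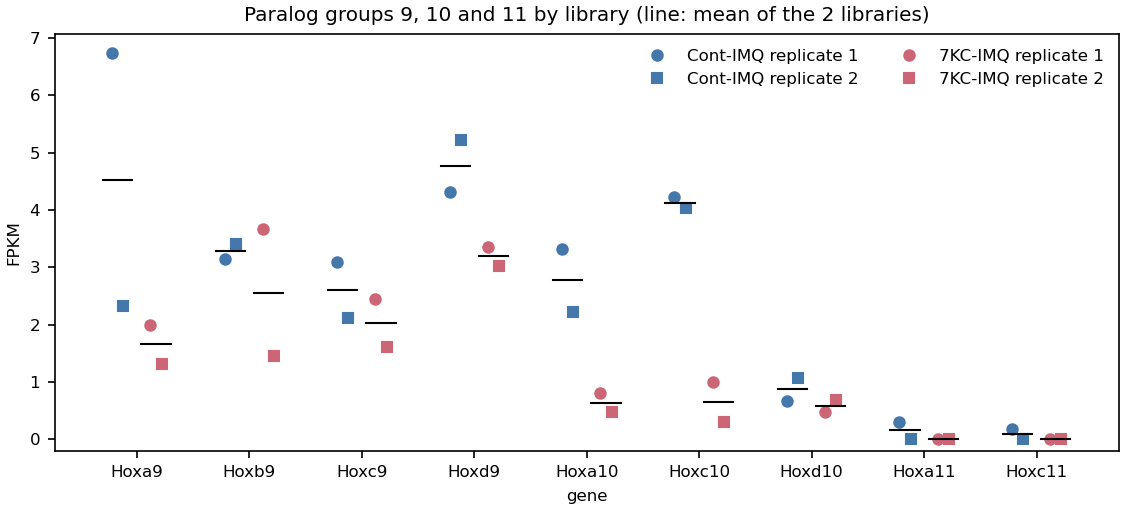
FPKM (vertical axis) of genes of paralog groups 9, 10 and 11 in each library: circles are replicate 1, squares replicate 2, blue Cont-IMQ, red 7KC-IMQ, and lines the means of 2 libraries. The red points of *Hoxa10*, *Hoxc10* and *Hoxd9* lie below the blue ones, and the mean of *Hoxa9* in the Cont-IMQ group is set by replicate 1 at 6.74 FPKM.

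Paralog group 9 marks the lower thoracic level and has a member in each of the 4 clusters. *Hoxd9* (chr2:74697727-74700208, plus strand) was at 4.32 and 5.23 FPKM in Cont-IMQ skin and at 3.36 and 3.02 FPKM in 7KC-IMQ skin. The groups did not overlap, and limma gave a difference of -0.46 ± 0.13 (SE), an unadjusted p of 0.0193 and an adjusted p of 0.356. The unadjusted p was under 0.05 in 9 of 12 alternatives, and it was above without Cont-IMQ replicate 2 and without either 7KC-IMQ replicate. *Hoxa9* (chr6:52223100-52231089, minus strand), known also for its role in blood progenitors, was at 6.74, 2.32, 2.00 and 1.32 FPKM. Cont-IMQ replicate 1 stood far above the other 3 libraries. The limma difference of -0.94 ± 0.43 (SE, adjusted p = 0.444) was -0.33 without that library and -1.55 without Cont-IMQ replicate 2.

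*Hoxb9* was at 3.15 and 3.42 FPKM in Cont-IMQ skin and at 3.67 and 1.45 FPKM in 7KC-IMQ skin. Its replicates in the 7KC-IMQ group lay on both sides of the Cont-IMQ values, and the difference of -0.34 ± 0.32 (SE) was 0.13 without 7KC-IMQ replicate 2. *Hoxc9*, a thoracic motor neuron determinant, was at 3.09 and 2.13 FPKM against 2.45 and 1.61 FPKM, with overlap and a difference of -0.25 ± 0.21 (SE, log2 scale). The sum of the 4 group 9 genes was 17.3 and 13.1 FPKM in Cont-IMQ skin and 11.5 and 7.41 FPKM in 7KC-IMQ skin, without overlap. At paralog group 11 the Cont-IMQ replicates held 0.537 and 0.0207 FPKM in sum, and all 3 genes were listed at 0 in both 7KC-IMQ replicates. The group 11 sum came almost wholly from *Hoxa11* and *Hoxc11* in Cont-IMQ replicate 1, at 0.312 and 0.184 FPKM, or about 10 and 5 reads. Of the *Hoxa11* stretches of 75 bases, 32.0% are shared with the antisense gene *Hoxa11os*. In paralog group 12 only *Hoxc12* in 7KC-IMQ replicate 2 was above 0, at 0.104 FPKM.

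*Hoxc13* (chr15:102921103-102928814, plus strand), a regulator of hair keratin genes, was at 2.94 and 13.3 FPKM in Cont-IMQ skin and at 6.42 and 5.38 FPKM in 7KC-IMQ skin. The lowest and the highest library were both Cont-IMQ. The limma difference of -0.13 ± 0.62 (SE, adjusted p = 0.952) was 0.80 without Cont-IMQ replicate 2 and -1.06 without Cont-IMQ replicate 1. The 23 genes of a hair follicle list, hair keratins and follicle regulators without *Hoxc13*, stood in the same order over the libraries by their mean and their sum, though not gene by gene. Their mean was 2.11, 4.46, 3.08 and 2.98 on the log2(FPKM + 1) scale and their sum 190.2, 1703, 534 and 467 FPKM (Cont-IMQ replicates first, then 7KC-IMQ replicates). Of 2 genes picked after their values were seen, *Gata3* was highest in Cont-IMQ replicate 1, at 39.6 FPKM, and *Krt84* in 7KC-IMQ replicate 2, at 3.95 FPKM. None of the 23 was at 0 in all libraries, and the part of hair follicle content in the *Hoxc13* values was not tested. Without *Hoxc13*, posterior genes gave 21.4%, 15.8%, 11.8% and 9.20% of the summed *Hox* FPKM, and both 7KC-IMQ values lay below both Cont-IMQ values.

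**Figure D4:**
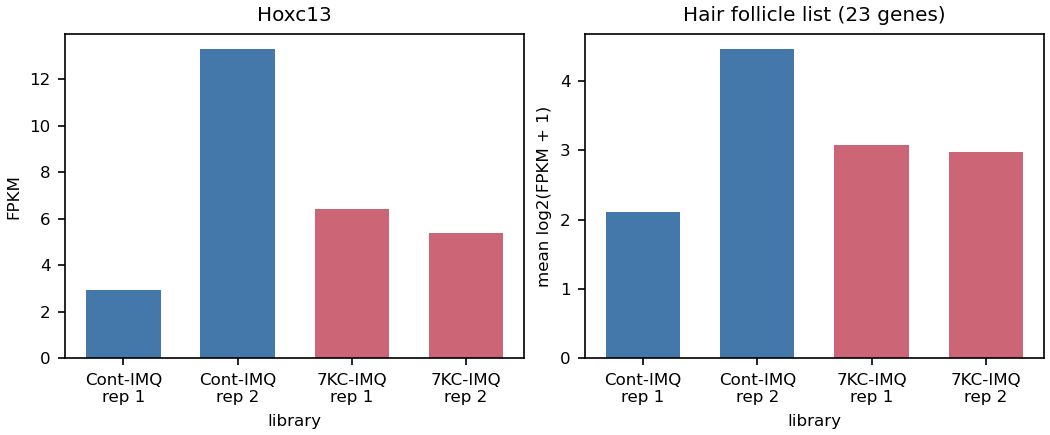
*Hoxc13* in FPKM (left) and the mean log2(FPKM + 1) of 23 hair follicle genes (right) in each of the 4 libraries, with bars from 0. Cont-IMQ replicate 2 is the highest in both panels, at 13.3 FPKM and 4.46, and Cont-IMQ replicate 1 the lowest, at 2.94 FPKM and 2.11.

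Genes of paralog groups 6 to 8, of the thoracic level at which most of the back lies, included the 5 most abundant members, and their differences ran from -0.45 for *Hoxa6* to 0.30 for *Hoxc8*. *Hoxd8* was at 12.8 and 16.3 FPKM in Cont-IMQ skin and at 11.7 and 12.7 FPKM in 7KC-IMQ skin, lower without overlap by a small margin, with a limma difference of -0.23 ± 0.14 (SE). *Hoxa7* was at 12.9 and 11.6 FPKM against 11.3 and 9.62 FPKM, also without overlap, and differed by -0.21 ± 0.12 (SE). *Hoxb7* was at 9.62 and 10.6 FPKM against 10.9 and 8.20 FPKM. The *Hoxb7* groups overlapped, as did those of all 8 tested genes of cluster B.

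*Hoxc8*, which specifies motor neurons of the forelimb level and thoracic vertebrae, was the abundant gene with the opposite order. It was at 7.32 and 7.06 FPKM in Cont-IMQ skin and at 10.2 and 8.12 FPKM in 7KC-IMQ skin, with a limma difference of 0.30 ± 0.13 (SE, adjusted p = 0.430). *Hoxb8* was at 4.49 and 4.65 FPKM against 6.14 and 3.32 FPKM, so that the 7KC-IMQ replicates lay on either side of the Cont-IMQ group. *Hoxc6* was at 8.72 and 8.24 FPKM against 8.07 and 7.42 FPKM, lower without overlap by -0.12 ± 0.10 (SE, log2 scale). *Hoxa6* (chr6:52206288-52208722, minus strand) was at 3.07 and 2.29 FPKM against 1.75 and 1.62 FPKM. Its limma difference was -0.45 ± 0.15 (SE), with an unadjusted p of 0.0305 and an adjusted p of 0.365, and the unadjusted p was under 0.05 in 8 of 12 alternatives, being above it without Cont-IMQ replicate 1, without either 7KC-IMQ replicate and under quantile normalization. *Hoxb6* was at 3.85 and 4.24 FPKM against 5.07 and 3.73 FPKM, with overlap.

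Genes of paralog groups 1 to 5, which pattern the hindbrain, pharyngeal arches and neck, were present at lower levels in this dorsal skin, apart from *Hoxb2* and *Hoxa5*. *Hoxb2*, a hindbrain gene, was at 6.21 and 6.78 FPKM in Cont-IMQ skin and at 7.69 and 5.98 FPKM in 7KC-IMQ skin. *Hoxa5*, needed for the lung and the neck-to-thorax transition, was at 5.71 and 6.20 FPKM against 6.43 and 5.64 FPKM. Neither gene separated the groups, and the *Hoxa5* difference of 0.01 had a 95% confidence interval from -0.28 to 0.31 by limma.

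*Hoxa4*, a gene of the neck vertebrae, was at 1.38 and 1.14 FPKM against 1.52 and 1.60 FPKM, higher without overlap by 0.18 ± 0.11 (SE, log2 scale). *Hoxd4* was at 2.54 and 2.87 FPKM against 2.32 and 2.096 FPKM, lower without overlap by -0.21 ± 0.12 (SE). It shares exons with *Hoxd3*, and 43.9% of its stretches of 75 bases are shared with *Hoxd3*, *Gm28230* and *Hoxd3os1* together. The other members of these groups with a mean of at least 1 FPKM all overlapped between the groups. *Hoxa3*, a gene of thymus and parathyroid formation, was at 2.14 and 1.49 FPKM against 1.63 and 1.38 FPKM. *Hoxb3* was at 2.77 and 3.76 FPKM against 3.02 and 2.63 FPKM, and 50.5% of its stretches of 75 bases are shared with the antisense gene *Hoxb3os*, whose reads cannot be told apart from those of *Hoxb3* where counting ignores strand, which the sources used here do not state. Other members share such stretches too. *Hoxb2* shares 25.2% of them with *Hoxb3os*, *Hoxa7* 17.9% with the antisense gene *Hoxaas3*, and *Hoxa3* 22.5% with *Hoxaas2* and other genes. *Hoxb4*, known for expanding blood stem cells, was at 1.37 and 1.58 FPKM against 1.64 and 1.48 FPKM. *Hoxc4* was at 2.41 and 2.104 FPKM against 1.91 and 2.37 FPKM. Of the tested genes with a mean under 1 FPKM, *Hoxa2*, *Hoxb5*, *Hoxd3* and *Hoxd10*, the limma differences ranged from -0.28 for *Hoxa2* to 0.07 for *Hoxb5*. Over the whole set, 22 of 29 tested genes differed by less than 0.3 in either direction.

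Summed by cluster, *Hoxa* genes gave 37.6 and 28.8 FPKM in Cont-IMQ skin and 27.4 and 23.4 FPKM in 7KC-IMQ skin, and *Hoxd* genes gave 21.2 and 26.7 FPKM against 18.8 and 19.6 FPKM. Both sums were lower in the 7KC-IMQ group without overlap. The *Hoxb* sum was 32.1 and 36.2 FPKM against 38.9 and 27.8 FPKM, and the *Hoxc* sum 31.0 and 37.9 FPKM against 31.8 and 26.8 FPKM, and these overlapped. The median limma difference was -0.21 for the 9 tested genes of cluster A, 0.02 for the 8 of cluster B, -0.12 for the 7 of cluster C and -0.23 for the 5 of cluster D. Cluster B has no member between *Hoxb9* and *Hoxb13* and so no gene of paralog group 10. All *Hox* genes together gave 121.8 and 129.6 FPKM in Cont-IMQ skin and 116.9 and 97.6 FPKM in 7KC-IMQ skin, without overlap. Posterior genes gave 29.0 and 33.7 FPKM against 20.2 and 14.3 FPKM, and groups 1 to 8 gave 92.9 and 95.8 FPKM against 96.7 and 83.2 FPKM.

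**Figure D5:**
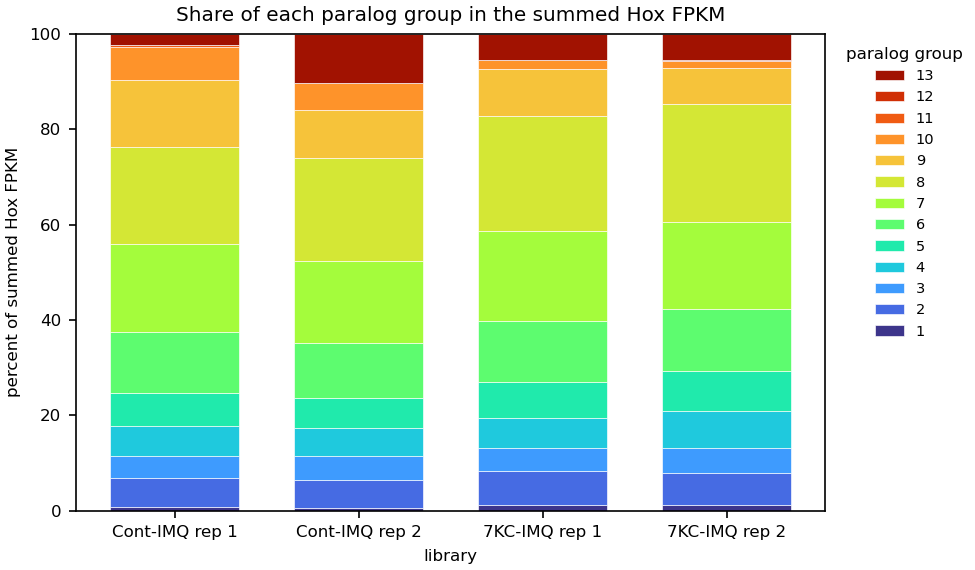
Percent of the summed *Hox* FPKM (vertical axis) taken by each paralog group, stacked from group 1 at the bottom to group 13 at the top, in each of the 4 libraries. Group 10 takes 6.75% and 5.66% in the Cont-IMQ libraries and 1.95% and 1.497% in the 7KC-IMQ libraries, and group 13, which is *Hoxc13*, is widest in Cont-IMQ replicate 2.

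Genes that work with or on the *Hox* clusters were read from the same fit, and none passed an adjusted p of 0.05 by limma. At an unadjusted limma p under 0.05, 7.5% of all genes tested were higher and 5.47% lower. TALE homeodomain proteins (the Pbx, Meis and Pknox families) bind DNA together with Hox proteins. All 9 of their genes were tested, 0 were higher and 0 lower at an unadjusted p under 0.05, their median difference was 0.03, and *Pbx2*, the most abundant, was at 14.2 and 17.2 FPKM against 15.2 and 14.9 FPKM. The Trithorax group and H3K27 demethylases, which keep *Hox* genes active, gave the same counts of 0 and 0 over 11 genes with a median of 0.0044, and *Dpy30*, their most abundant gene, was at 47.5 and 47.4 FPKM against 50.7 and 49.9 FPKM.

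Polycomb proteins keep *Hox* genes silent where they are not used. Of 17 Polycomb genes, 0 were higher and 2 lower at an unadjusted limma p under 0.05, 8 were lower and 2 higher without overlap, and the median difference was -0.06. Over all genes tested, 5.47% were lower at that p, 22.9% were lower and 23.9% higher without overlap. *Cbx7*, a chromodomain subunit that reads H3K27 methylation, was at 10.5 and 10.8 FPKM in Cont-IMQ skin and at 7.28 and 7.19 FPKM in 7KC-IMQ skin, with a limma difference of -0.50 ± 0.09 (SE, adjusted p = 0.352). *Cbx8*, a related subunit, was at 6.80 and 6.31 FPKM against 5.07 and 4.50 FPKM, with a difference of -0.39 ± 0.11 (SE). *Phc2*, the most abundant Polycomb gene, was at 39.2 and 42.4 FPKM against 41.7 and 42.6 FPKM and overlapped.

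Retinoic acid and the Cdx factors activate *Hox* genes in the embryo. Of 15 genes of this list 10 were tested. At an unadjusted limma p under 0.05, 0 were higher (7.5% of all genes tested) and 1 was lower (5.47% of all genes tested). That gene was *Rarg*, the main retinoic acid receptor of epidermis and the most abundant member, at 85.0 and 82.0 FPKM against 71.7 and 69.9 FPKM, a difference of -0.24 ± 0.07 (SE, adjusted p = 0.356). *Cdx1*, *Cdx2*, *Cdx4* and *Cyp26c1* were listed at 0 in all 4 libraries.

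Non-coding RNAs and *Evx* genes of the clusters were sparse. Of 21 listed, 18 were in the files and 6 were tested, with 1 higher and 1 lower at an unadjusted limma p under 0.05. The shares over all genes tested were 7.5% higher and 5.47% lower at that p. *Hotairm1*, an RNA of the *Hoxa* cluster, was the most abundant at 13.8, 16.5, 15.3 and 24.2 FPKM (Cont-IMQ replicates first, then 7KC-IMQ replicates), with overlap. *Halr1*, a retinoic acid-inducible RNA near the *Hoxa* cluster, was at 0.568 and 0.765 FPKM against 1.06 and 1.54 FPKM, a limma difference of 0.46 ± 0.15 (SE, adjusted p = 0.365). *Hoxd3os1*, antisense to *Hoxd3*, was at 0.557 and 0.225 FPKM and listed at 0 in both 7KC-IMQ libraries. *Hoxb5os* was at 1.40 and 3.90 FPKM against 1.97 and 1.24 FPKM, with overlap. *Hotair*, *Hottip* and the *Mir10* and *Mir196* genes gave at most 0.064 FPKM, and short RNAs are not captured by this kind of library.

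Other transcription factors of skin position were read beside the *Hox* genes, 24 homeobox and T-box genes of limbs and trunk. Of the 20 tested, 0 were higher and 1 was lower at an unadjusted limma p under 0.05, 0 were higher and 8 lower without overlap, and the median difference was -0.12. The shares over all genes tested were 7.5% higher and 5.47% lower at that p, and 23.9% higher and 22.9% lower without overlap. *Shox2*, a limb gene, was at 3.19 and 3.39 FPKM against 2.62 and 2.37 FPKM, with a difference of -0.30 ± 0.11 (SE). *Irx3* was the most abundant at 32.9 and 29.1 FPKM against 30.9 and 48.8 FPKM, with overlap.

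Markers of other cell types were compared because *Hox* levels differ between cell types. No tested marker of any cell type list passed an adjusted p of 0.05 by limma. Of the 6 endothelial markers, 5 had lower levels with 7KC at an unadjusted limma p under 0.05, where 5.47% of all genes tested were, and their sum was 53.1 and 58.6 FPKM against 44.3 and 42.4 FPKM, with none at 0. The median difference was -0.41 for endothelial, 0.19 for fibroblast and -0.05 for skeletal muscle markers, beside -0.40 for posterior *Hox* genes. Over the other marker lists it ran from -0.15 (hair follicle) to 0.22 (adipocyte). The part of endothelial content in the *Hox* values was not tested. The 12 fibroblast markers summed to 3647 and 2691 FPKM against 3441 and 3040 FPKM and overlapped. Within them *Crabp1*, a retinoic acid binding protein of dermal fibroblasts, was at 11.4 and 8.55 FPKM against 19.0 and 20.9 FPKM, and *Prrx1*, a mesenchymal homeobox gene, was at 20.9 and 19.8 FPKM against 17.2 and 15.4 FPKM. The 15 skeletal muscle markers, which come from the muscle layer under the skin, summed to 10045 and 9414 FPKM against 8110 and 9616 FPKM and overlapped. Within these, *Myh4* was at 124.9 and 62.9 FPKM against 426.9 and 329.4 FPKM, and *Myh1* at 695 and 753 FPKM against 322 and 568 FPKM. The part of muscle or fibroblast content in the *Hox* values was not tested.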

How the data were processed

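RNA of 4 dorsal skin libraries was prepared by the authors with a stranded mRNA kit and sequenced as 75-base single-end reads. The authors mapped reads to mm10 (GRCm38) and deposited FPKM per gene symbol, 1 file per library, holding no counts and no fold changes. The submitters' processing notes name TopHat2 2.1.1, Bowtie2 2.2.8, SAMtools 0.1.18 and Cuffdiff 2.2.1, while the paper's methods name Cufflinks and other versions. The strand setting is not given in the sources used here.

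Groups were taken from the sample labels. Genes with a mean of at least 0.1 FPKM (15896) were compared on log2(FPKM + 1), a scale that understates changes of low genes, by lmFit and eBayes of limma 3.58.1 with a variance trend (R 4.3.3), with Benjamini-Hochberg adjustment over all genes tested at 0.05. The script was tested on simulated data. The *Hox* genes and all lists were chosen with earlier results of these data known.

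Named by rule were members with a mean of at least 1 FPKM, or lower ones with an unadjusted p under 0.05 and no overlap. Also named were up to 3 such genes of each TALE, Trithorax, Polycomb, retinoid, non-coding and positional list, its most abundant gene, and non-coding RNAs of at least 0.5 FPKM. The cell type markers named do not follow this rule in full, since not every marker that meets it was named. *Hoxd10*, *Hoxa2*, *Hoxb5*, *Hoxd3*, the genes below 0.1 FPKM and genes listed at 0 lie outside the rule and were named after their values were seen. An item that is withheld is not reported here by itself, though the counts and sums include every member. Reads per library were estimated from single-transcript genes (2896) with an assumed fragment length of 200 ± 80 bases, and cover counting only. Gene positions, shared stretches and homeoboxes came from GENCODE M21. Alternatives were another pseudocount, other filters, scalings and variance settings, a replicate block and each library left out. Settings without *Hoxc13* were added after seeing the data.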

Additional observations from a re-analysis of the deposited data

How the results depend on the processing

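No *Hox* gene passed the adjusted threshold under any of the 12 alternatives. The limits are set by 2 libraries per group and by few reads in low genes. With a pseudocount of 0.1, 2 of all genes passed. With a mean of at least 1 FPKM, 0 pathway-list genes were higher and 3 lower at an unadjusted p under 0.05, and with no filter 2 were higher and the posterior median was -0.25. Scaling to the same sum, which moved the median of all genes to -0.066, gave a median of -0.069 for groups 1 to 8, and *Hoxa5*, *Hoxb2* and *Hoxb4* became -0.056, -0.015 and -0.0013. Under quantile normalization *Hoxb8* and *Hoxc4* became 0.037 and 0.0094. The labels do not say that replicate numbers pair the libraries, and the deviations of same-numbered libraries from their group means correlated at 0.065 over 15896 genes. With the replicate number as a block, *Hox* counts at an unadjusted p under 0.05 were 5 lower, against 4 without it, and 0 higher, the gene gained being *Hoxa9*, and no adjusted call of a *Hox* gene changed. The cause of these shifts was not tested.

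With 1 library left out, genes past the threshold ranged from 1 to 9. *Hox* genes at an unadjusted p under 0.05 ranged from 0 to 1 higher and from 2 to 5 lower, and those without overlap, which is easier to reach with fewer libraries, from 3 to 10 higher and from 12 to 19 lower. Pathway-list genes ranged from 0 to 3 higher and from 1 to 9 lower. The median ranged from -0.22 (without 7KC-IMQ replicate 1) to -0.053 (without 7KC-IMQ replicate 2) over all tested *Hox* genes, from -0.32 to -0.10 in cluster A, from -0.16 to 0.11 in B, from -0.40 to -0.084 in D, from -0.10 to 0.015 in groups 1 to 8 and from -0.66 to -0.37 in groups 9 to 13. The log2 ratio of summed FPKM ranged from -0.57 (without Cont-IMQ replicate 2) to -0.18 (without Cont-IMQ replicate 1) in cluster A, from -0.30 to 0.19 in B, from -0.37 (without Cont-IMQ replicate 1) to -0.081 (without Cont-IMQ replicate 2) in C and from -0.48 to -0.14 in D. Differences that changed sign ranged from -0.33 to 0.010 for *Hoxa3*, -0.067 to 0.096 for *Hoxa5*, -0.10 to 0.21 for *Hoxb2*, -0.32 to 0.020 for *Hoxb3*, -0.013 to 0.11 for *Hoxb4*, -0.093 to 0.27 for *Hoxb6*, -0.27 to 0.095 for *Hoxb7*, -0.37 to 0.36 for *Hoxb8*, -0.80 to 0.13 for *Hoxb9*, -0.16 to 0.051 for *Hoxc4*, -0.25 to 0.38 for *Hoxc5* and -1.06 to 0.80 for *Hoxc13*. The low genes *Hoxb5* and *Hoxd3* also changed sign, from -0.14 to 0.27 and from -0.060 to 0.16.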

Other observations

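A pair of hindlimb genes of the positional list, *Pitx1* and *Tbx4*, was picked after values were seen, because these factors act at the body level of *Hoxc10*. *Pitx1*, which specifies hindlimb identity, was at 0.492 and 0.497 FPKM in Cont-IMQ skin and at 0.270 and 0.381 FPKM in 7KC-IMQ skin. *Tbx4*, a T-box gene downstream of it, was at 0.376 and 0.214 FPKM against 0.132 and 0.143 FPKM. Both were lower without overlap, as were 22.9% of all genes tested, and neither passed the test (limma differences -0.17 and -0.18, adjusted p = 0.545 and 0.549).

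In the adipocyte list 2 of 8 genes were higher and 0 lower at an unadjusted limma p under 0.05 (7.5% and 5.47% of all genes tested). *Lep*, which encodes leptin, was at 1.64 and 1.16 FPKM against 9.75 and 3.71 FPKM, a limma difference of 1.58 ± 0.42 (SE, adjusted p = 0.356), and *Plin1* was at 17.4 and 19.5 FPKM against 26.0 and 22.7 FPKM. The 8 leukocyte markers had 1 higher and 2 lower at that p and a median difference of -0.13. *S100a8*, a calprotectin subunit of neutrophils and inflamed keratinocytes, was at 1267 and 1037 FPKM against 3608 and 6775 FPKM, a difference of 2.11 ± 0.33 (SE, adjusted p = 0.352), while the T cell gene *Cd3e* was at 3.76 and 3.05 FPKM against 2.47 and 2.36 FPKM and the myeloid lysozyme *Lyz2* at 210.1 and 233.4 FPKM against 190.9 and 174.8 FPKM. Of the 9 keratinocyte markers 1 was higher and 2 lower at that p, with a median of -0.02. *Krt15*, a keratin of basal cells, was at 215.8 and 171.8 FPKM against 123.0 and 96.9 FPKM, while the desmosomal *Dsg3* was at 56.1 and 56.4 FPKM against 78.1 and 94.4 FPKM. The 7 melanocyte markers summed to 52.4 and 157.3 FPKM against 91.3 and 78.6 FPKM, in the library order of the hair follicle genes, and *Mitf* among them was at 5.01 and 6.20 FPKM against 4.09 and 3.65 FPKM.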
